A study of Rattus norvegicus with 24 samples.

Results

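The comparison described here is electroacupuncture after partial hepatectomy (HT + EA) against partial hepatectomy alone (HT) in the central nucleus of the amygdala (CEA). Its members are the 6 microRNA libraries of the CEA whose labels name these groups, 3 for HT + EA and 3 for HT, out of 24 libraries in the whole series. The rats were male Sprague-Dawley animals, 7 weeks old at purchase. Both groups had part of the liver removed under isoflurane, so the surgery and the anaesthesia were common to them. The HT + EA rats also received current through needles at the hind limb acupoints Zusanli and Sanyinjiao before and directly after the operation. Tissue was collected 24 h after the last treatment. The other CEA groups were normal controls without surgery (NC) and hepatectomised rats with needles at the same acupoints but no current (HT + SEA), and each of the 4 groups was also sampled in the paraventricular nucleus of the hypothalamus (PVN). The labels do not tie a library to a rat. The study describes 12 rats for the 4 groups, and also states that the brain tissue was taken from different rats of 1 batch, collected together. Whether any rat gave libraries of both nuclei cannot be told from the sources used here. The p-values measure the spread between these libraries.

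The CEA is the main output station of the amygdala. It is built largely of inhibitory neurons, it responds to stress, pain and visceral signals, and it projects to the brainstem and toward the hypothalamic cells that start the release of stress hormones. A microRNA (miRNA) is a short RNA cut from a hairpin, and it represses messenger RNAs that pair with its seed, the stretch from base 2 to base 8. Either arm of a hairpin can give a mature miRNA, named 5p or 3p after the side it comes from. Many miRNAs mark a cell type, so in a piece of tissue a level can reflect the makeup of the sample as well as the state of its cells. Fewer cells of a type and less of a miRNA per cell cannot be told apart in these bulk libraries.

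Across the 1004 miRNAs with at least 1 count in the 6 libraries, 53 (5.28%) differed between HT + EA and HT at an unadjusted p under 0.05 by edgeR's quasi-likelihood test, 18 higher after EA (1.79%) and 35 lower (3.49%). With counts scaled by library totals instead, the split was 41 higher and 21 lower. The unadjusted threshold alone would pass 50.2 of 1004. A single miRNA, miR-223-3p, passed a Benjamini-Hochberg adjusted p of 0.05 (0.0996% of those tested). It rose 7.98-fold, with 2 EA libraries far above HT and 1 near it. Among the 531 miRNAs with a mean of at least 10 counts, 37 were called (6.97%), 12 higher and 25 lower. The higher ones were led by miR-223-3p of myeloid cells, miR-10b-5p of a Hox cluster and the epithelial miR-200a-3p and miR-200b-3p. The lower ones included miR-493, miR-136-5p and miR-431 of the imprinted Dlk1-Dio3 locus, the neuronal miR-128-3p and miR-218a-5p, miR-29b-3p and miR-219a-5p. Of these 37, 36 had the same direction in the PVN, which was read from other libraries. "Called" below means past the unadjusted threshold, and every call between HT + EA and HT in the CEA other than miR-223-3p failed the adjustment.

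**Figure D1:**
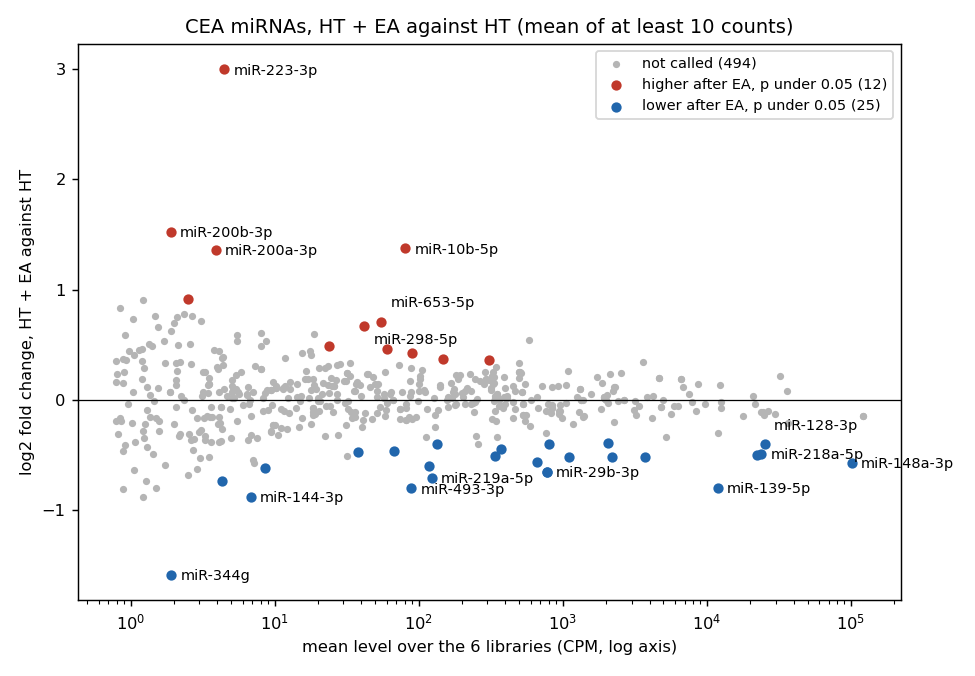
Difference against level for the 531 miRNAs with a mean of at least 10 counts. The x axis is the mean over the 6 CEA libraries in CPM, counts scaled to library size (log axis), the y axis is the log2 fold change of HT + EA against HT, and points in red (12) and blue (25) passed the unadjusted threshold. The 4 highest points are miR-223-3p, miR-200b-3p, miR-10b-5p and miR-200a-3p, and all have fewer than 1000 CPM.

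The mature sequences of the miRNAs that lead the comparison follow, from RefSeq on the rat assembly GRCr8, with the seed in capitals. RefSeq entries were matched by name for 637 of the 703 known rat miRNAs in the table.
miR-223-3p: uGUCAGUUugucaaauacccc
miR-10b-5p: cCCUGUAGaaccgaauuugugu
miR-10a-5p: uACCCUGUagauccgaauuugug
miR-493-3p: uGAAGGUCuacugugugccag
miR-493-5p: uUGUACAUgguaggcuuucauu
miR-29b-3p: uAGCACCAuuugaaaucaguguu
miR-3587: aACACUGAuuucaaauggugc
miR-218a-5p: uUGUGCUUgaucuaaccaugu
miR-218b: cAUGGUUAgaucaagcacaa
miR-219a-5p: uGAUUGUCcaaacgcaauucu
miR-139-5p: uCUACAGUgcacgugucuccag
miR-128-3p: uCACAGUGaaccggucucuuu
miR-132-3p: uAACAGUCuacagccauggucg
miR-148a-3p: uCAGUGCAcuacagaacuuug
The first shows the only adjusted call, the miR-10 pair shows paralogs with different seeds as annotated, and the miR-493 pair shows both arms of 1 hairpin. The pairs miR-29b-3p with miR-3587 and miR-218a-5p with miR-218b are shown because of how their letters relate.

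Several names in the table were near copies of one another. All 21 bases of miR-3587 match the reverse complement of miR-29b-3p, and the counts of both names differed by at most 0.0432% in any library. All 20 bases of miR-218b match the reverse complement of miR-218a-5p, and its counts were lower than those of miR-218a-5p by 6.43% to 8.82% across the 6 libraries. All 18 bases of miR-9b-3p match the reverse complement of miR-9a-5p, with counts that differed by at most 0.290%. Each pair maps to opposite strands of the same place, and whether the strand of a read was used in miRNA counting is not given in the sources used here. Such pairs are described together below. By contrast, miR-10b-5p as annotated starts 2 bases into miR-10a-5p and matches it at 20 of 21 aligned bases, so both have their own counts but may share reads.

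The libraries held between 9868383 and 13537987 counts in HT and between 13402373 and 14913564 in HT + EA. At a mean of at least 10 counts the median standard error of a log2 fold change was 0.222. The first HT library stood apart. Its scaling factor was 0.822, against 0.98 to 1.05 in the other 5, and it held 196180 CPM of miR-148a-3p against 77603 to 87496 in the others. Neuronal markers were present in every library, with miR-124-3p at a mean of 1605 ± 216 CPM in HT + EA and 1518 ± 484 CPM in HT (SD, n = 3 each). Markers of oligodendrocytes, endothelium, red cells and myeloid cells were also detected, so the pieces held all of these, and no marker that separates the CEA from neighbouring nuclei was listed. The liver miR-122-5p was at 1.30 CPM or less in all 6 libraries.

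miR-223-3p is made by granulocytes and other myeloid cells, where it restrains their growth and activation. Its counts were 18, 167 and 157 in the HT + EA libraries and 11, 9 and 12 in the HT libraries. Scaled to library size these were 1.23, 11.9 and 10.8 CPM after EA and 1.10, 0.908 and 0.901 CPM with HT alone. The groups did not overlap, but the first EA library lay near the HT libraries and the other two lay about an order of magnitude above. The log2 fold change was 3.0 (SE 0.49, 95% interval 2.01 to 3.99, adjusted p = 0.000366), and the adjusted p ranged from 5.58e-15 to 0.972 over the alternatives. Without the second EA library the log2 fold change was 2.55, past the unadjusted but not the adjusted threshold (adjusted p = 0.868). The exact permutation test of 3 libraries against 3 cannot give a two-sided p below 0.1.

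Among the 26 members of the myeloid and inflammation list, 3 were called against 5.28% of all miRNAs, miR-223-3p higher and miR-132-5p and miR-132-3p lower, and both miR-132 arms are also neuronal. With library totals the list held 2 called higher and 0 lower, and with DESeq2 1 higher and 1 lower. The median log2 fold change of its 22 members with a mean of at least 10 counts was 0.10, with 14 above 0, against 0.02 over all 531 miRNAs. The defining myeloid markers other than miR-223-3p were not called: miR-142-3p had a log2 fold change of -0.11, miR-142-5p of 0.12 and miR-155-5p of 0.10. miR-181a-5p was at 7231 ± 1573 CPM after EA and 6491 ± 1455 CPM in HT, and miR-21-5p at 9731 ± 1416 and 9706 ± 961 CPM (SD, n = 3 each). The summed level of the list was 31242 to 37889 CPM after EA and 32409 to 35222 CPM in HT.

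miR-10b-5p lies within the Hoxd4 gene, at chr3:80035886-80035907 on the plus strand (GRCr8). Hox genes pattern the hindbrain and trunk and are silent in most of the forebrain. Its levels after EA were 37.2, 134 and 182 CPM, and in HT they were 16.4, 54.9 and 60.8 CPM. The groups overlapped, since the first EA library lay below HT libraries 2 and 3. The log2 fold change was 1.37 (SE 0.33, 95% interval 0.70 to 2.05, adjusted p = 0.0932), and without the second EA library it was 1.24 and no longer called. Its paralog miR-10a-5p was at 101, 87.5 and 123 CPM after EA and at 58.7, 95.6 and 71.7 CPM in HT, a log2 fold change of 0.42 (SE 0.20), and its call was lost without any 1 of 5 of the 6 libraries. Only 2 of the 7 members of the Hox list passed a mean of 10 counts, and both of those were called higher, against 1.79% of all miRNAs. With DESeq2 neither was called (unadjusted p = 0.078 for miR-10b-5p and 0.054 for miR-10a-5p), nor was either with all 4 CEA groups in the fit.

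Across the 24 libraries, miR-223-3p and miR-10b-5p were high in much the same libraries. In the CEA, miR-223-3p was above 10 CPM in EA libraries 2 and 3, NC libraries 2 and 3 and SEA library 1, and at 0.901 to 1.75 CPM in the other 7. These 5 libraries were also the only CEA libraries above 100 CPM for miR-10b-5p. In the PVN, miR-223-3p was at 10.1, 8.81 and 11.7 CPM in the 3 EA libraries and at 1.04, 1.36 and 1.45 CPM in the 3 HT libraries. NC libraries of the PVN reached 89.2 CPM for miR-223-3p, and the second of them held only 43.9 CPM of miR-10b-5p. The high level was therefore found in operated and unoperated rats, and within the CEA each group except HT held both high and low libraries. What sets the high and the low level was not tested.

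**Figure D2:**
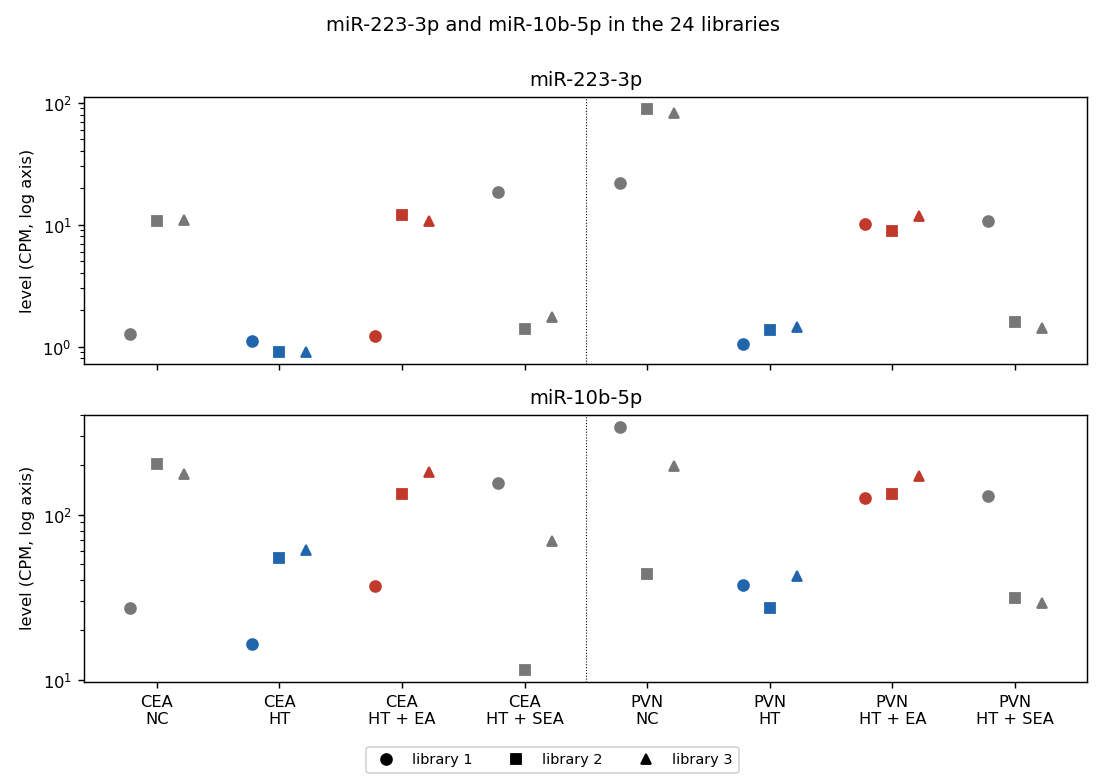
Level of miR-223-3p and miR-10b-5p in each of the 24 libraries (CPM, log axis), by nucleus and group, with HT in blue, HT + EA in red and marker shape giving the library number. Both miRNAs are low in all 6 HT libraries of the 2 nuclei, while CEA HT + EA holds 1 low and 2 high libraries for miR-223-3p.

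The miR-200 and miR-183 clusters are typical of epithelial and sensory cells, and miR-200 family members repress the ZEB transcription factors. Of 11 members tested, 2 were called, both higher, against 1.79% of all miRNAs. miR-200b-3p was at 3.95, 3.42 and 1.17 CPM after EA and at 0.902, 1.21 and 0.826 CPM in HT, a log2 fold change of 1.53 (SE 0.45). miR-200a-3p was at 8.45, 6.98 and 1.44 CPM after EA and at 2.80, 3.33 and 0.526 CPM in HT, a log2 fold change of 1.36 (SE 0.47). For both, EA libraries 1 and 2 were above all HT libraries and EA library 3 lay among them. Neither was called without EA library 2, at log2 fold changes of 1.33 for miR-200b-3p and 1.14 for miR-200a-3p. Without HT library 3 miR-200a-3p was at 0.84 and still called. EA library 1, the low one for miR-223-3p, was thus the highest for both. Of the other cluster, miR-183-5p was at 8.81 ± 3.55 CPM after EA and 7.17 ± 2.31 CPM in HT (SD, n = 3 each), and miR-182 at 15.6 ± 2.89 and 15.0 ± 4.70 CPM. All of these are rare, with a mean of 25.8 counts for miR-200b-3p.

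The remaining higher miRNAs changed by less. miR-298-5p, from an imprinted cluster beside Gnas, was at 49.0, 51.1 and 55.7 CPM after EA and at 29.2, 45.0 and 21.5 CPM in HT. Its groups did not overlap, and the log2 fold change was 0.67 (SE 0.23). miR-653-5p lies within the calcitonin receptor gene Calcr. It was at 80.7, 71.6 and 53.8 CPM after EA and at 38.2, 64.2 and 21.7 CPM in HT, with groups that overlapped and a log2 fold change of 0.71 (SE 0.25). Neither was called without EA library 2, although the log2 fold changes stayed at 0.66 and 0.65, or without HT library 3, at 0.45 and 0.39.

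Htr2c, the serotonin 2C receptor gene on the X chromosome, holds 6 of the tested miRNAs by their RefSeq loci, looked up after the values were seen, and 2 of the 6 were called higher, against 1.79% of all miRNAs. miR-448-3p was at 34.2, 28.3 and 21.5 CPM after EA and at 19.7, 19.9 and 19.3 CPM in HT, a log2 fold change of 0.49 (SE 0.23). miR-3552 was at 3.89, 3.13 and 2.82 CPM after EA and at 1.10, 2.52 and 1.5 CPM in HT, a log2 fold change of 0.92 (SE 0.39). Neither of these had overlapping groups. The other arm of the first hairpin, miR-448-5p, had a log2 fold change of 0.03 (SE 0.38). miR-3099, whose groups did not overlap either, was at 70.7 ± 5.42 CPM after EA and 50.5 ± 5.02 CPM in HT (SD, n = 3 each), a log2 fold change of 0.46 (SE 0.20). miR-320-3p, which is made without the nuclear enzyme Drosha, had a log2 fold change of 0.36 (SE 0.18). None of these 4 was called without EA library 1, EA library 2 or HT library 3.

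**Figure D3:**
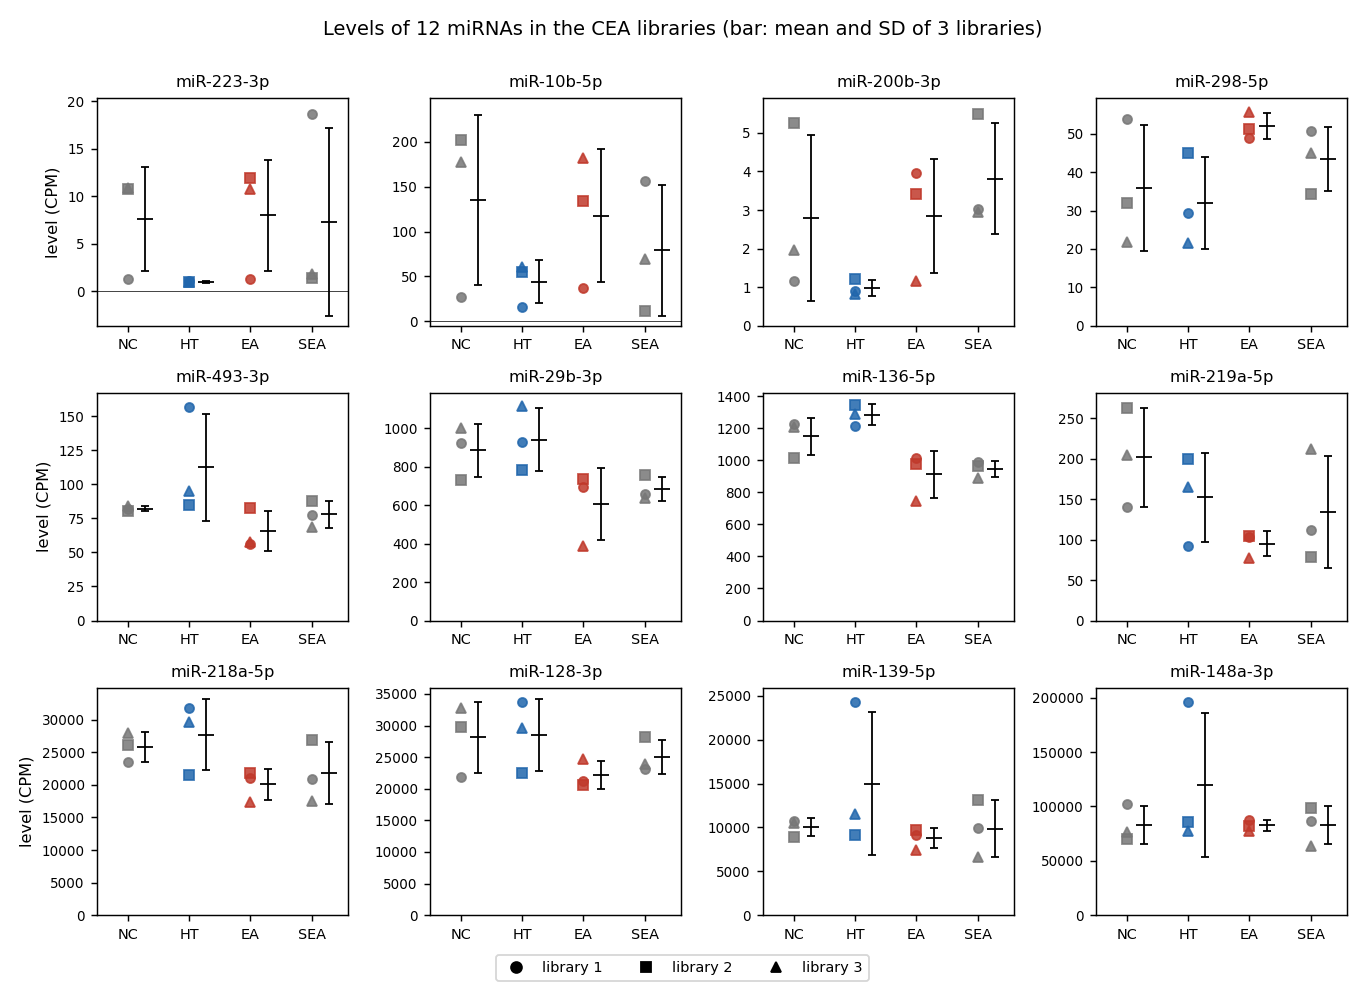
Levels of 12 of the named miRNAs in the 12 CEA libraries (CPM, linear axes from 0 or below), by group, with the mean and SD of 3 libraries as a bar beside the points. miR-493-3p, miR-29b-3p and miR-136-5p have all 3 EA libraries (red) below all 3 HT libraries (blue), while miR-139-5p and miR-148a-3p have 1 high HT library.

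The Dlk1-Dio3 locus on rat chromosome 6 carries one of the largest miRNA clusters of mammals, expressed from the maternal chromosome and mostly in brain. Of its 90 members tested, 5 were called, 4 lower and 1 higher, a share near the 5.28% called among all miRNAs (5 higher and 3 lower with library totals), and the median log2 fold change of the 82 with a mean of at least 10 counts was -0.00. Of these 82, 41 lay above 0 and 41 below. The summed level of the locus was 81979 to 85332 CPM after EA and 77181 to 77779 CPM in HT, so on this scale all EA libraries lay above all HT libraries. Both arms of miR-493 were called lower. miR-493-3p was at 56.5, 82.5 and 57.6 CPM after EA and at 157, 85 and 95 CPM in HT, a log2 fold change of -0.80 (SE 0.22). miR-493-5p was at 95.2, 110 and 76.6 CPM after EA and at 124, 157 and 140 CPM in HT, a log2 fold change of -0.60 (SE 0.19). Neither arm had overlapping groups, and both calls were made without each of the 6 libraries in turn, with miR-493-3p at -0.48 without the first HT library.

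miR-136-5p of the same locus was at 1013, 979 and 746 CPM after EA and at 1217, 1348 and 1289 CPM in HT. Its groups did not overlap, and the log2 fold change was -0.52 (SE 0.17), or -0.36 and not called without EA library 3. The other arm of this hairpin, miR-136-3p, named here after its value was seen, had a log2 fold change of 0.02 (SE 0.16), so the arms did not move together. miR-431, which lies within Rtl1, was at 124, 128 and 99.1 CPM after EA and at 197, 123 and 136 CPM in HT, a log2 fold change of -0.40 (SE 0.19). Without the first HT library it was -0.17 and not called, and DESeq2 did not call it either. Its call was also lost without any 1 EA library and with library totals. The called higher member was miR-379-3p, at 170, 158 and 173 CPM after EA and at 117, 127 and 137 CPM in HT, a log2 fold change of 0.37 (SE 0.18) that was called without HT library 1 but not without any other library. The most abundant member, miR-127-3p, was at 31672, 35292 and 37413 CPM after EA and at 27161, 30863 and 29665 CPM in HT. Its EA libraries all lay above its HT libraries, and with a log2 fold change of 0.22 (SE 0.15) it was not called.

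Of the 31 neuron-enriched miRNAs, 5 were called and all 5 were lower, against 3.49% of all miRNAs called lower. The 5 include both miR-218a-5p and its complement miR-218b. The median log2 fold change of the 28 members with a mean of at least 10 counts was -0.10, with 19 below 0, against a median of 0.02 over all 531 miRNAs. When scaled by library totals the list median was 0.04 and the median over all 531 miRNAs was 0.16, so the list lay 0.12 below all miRNAs under both scalings. With library totals 2 members were called lower, and these were the complements miR-218a-5p and miR-218b.

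miR-218a-5p comes from hairpins within Slit2 and Slit3, genes of axon guidance cues. Its levels were 20996, 21893 and 17373 CPM after EA and 31801, 21507 and 29732 CPM in HT, a log2 fold change of -0.49 (SE 0.17), with the second HT library inside the EA range. It stayed called without each library in turn. miR-128-3p, which dampens neuronal excitability and comes from hairpins within R3hdm1 and Arpp21, was at 21219, 20533 and 24700 CPM after EA and at 33678, 22441 and 29585 CPM in HT. Its log2 fold change was -0.40 (SE 0.16), and without the first HT library it was -0.26 and not called. Nor was it called without EA library 1 or EA library 2. miR-153-3p, from within the neuroendocrine vesicle gene Ptprn2, was at 696 ± 226 CPM after EA and 906 ± 113 CPM in HT (SD, n = 3 each), a log2 fold change of -0.40 (SE 0.19) that was -0.13 and not called without EA library 3. miR-138-1-3p had a log2 fold change of -0.47 (SE 0.23), or -0.18 and not called without the first HT library. The call of miR-138-1-3p was also lost without any 1 EA library, and that of miR-153-3p without EA library 2 or HT library 3. DESeq2 called neither. The most abundant neuronal name, miR-9a-5p, was not called, with 116479 ± 3602 CPM after EA and 126603 ± 11140 CPM in HT.

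miR-132 and miR-212 sit in 1 cluster on chromosome 10 and are induced in neurons by activity through CREB. Of the 9 activity-regulated miRNAs, 3 were called and all were lower, against 3.49% of all miRNAs, with a median of -0.40 over the 8 with a mean of at least 10 counts. DESeq2 called 1 of the 9, and none was called with library totals, where the median was -0.22 against 0.16 over all 531 miRNAs. miR-132-5p was at 3197, 3454 and 2572 CPM after EA and at 6146, 3390 and 3468 CPM in HT, a log2 fold change of -0.52 (SE 0.19). miR-132-3p was at 1838, 2074 and 1442 CPM after EA and at 3257, 1669 and 1996 CPM in HT, a log2 fold change of -0.39 (SE 0.19). miR-212-5p was at 325, 363 and 266 CPM after EA and at 607, 409 and 263 CPM in HT, a log2 fold change of -0.45 (SE 0.21). In each case the first HT library was the highest of the 6 and the groups overlapped. Without that library none of the 3 was called, and their log2 fold changes were -0.18, -0.06 and -0.10.

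Several other differences were smaller without the same library. miR-139-5p, within the phosphodiesterase gene Pde2a, was at 9135, 9734 and 7480 CPM after EA and at 24300, 9117 and 11543 CPM in HT. Its log2 fold change was -0.80 (SE 0.21) with the library and -0.26, not called, without it. miR-148a-3p, an abundant miRNA of secretory tissues, had a log2 fold change of -0.57 (SE 0.21) with it and -0.01 without it. miR-425-5p was at 517, 567 and 552 CPM after EA and at 1157, 616 and 591 CPM in HT, with groups that did not overlap. Its log2 fold change went from -0.56 (SE 0.19) to -0.17 without the library. miR-222-5p, with a log2 fold change of -0.73 (SE 0.33), stood at -0.42 without the library and was not called. Its groups did not overlap, and its call was also lost without EA library 1 or EA library 2.

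The miR-29 family represses collagens and DNA methyltransferases and rises as neurons mature. Of 6 members, 2 were called, both lower, against 3.49% of all miRNAs, and the family median was -0.25. miR-29b-3p was at 693, 734 and 388 CPM after EA and at 927, 782 and 1113 CPM in HT. All EA libraries were below all HT libraries, the log2 fold change was -0.65 (SE 0.19), and the call was made without each library in turn, at -0.39 without EA library 3. miR-29c-5p was at 269, 307 and 267 CPM after EA and at 560, 305 and 311 CPM in HT, a log2 fold change of -0.51 (SE 0.19) that was -0.16 without the first HT library. miR-29a-3p, which shares the seed of miR-29b-3p, did not differ detectably, with 4988 ± 98.1 CPM after EA and 4886 ± 1070 CPM in HT (SD, n = 3 each).

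miR-219a-5p drives oligodendrocyte differentiation. It was at 103, 104 and 76.7 CPM after EA and at 91.7, 200 and 165 CPM in HT, a log2 fold change of -0.71 (SE 0.21), with the first HT library inside the EA range. It was the 1 called of 6 oligodendrocyte members (2 higher and 1 lower with library totals), against 3.49% of all miRNAs called lower. The arm with more counts, miR-219a-2-3p, had a log2 fold change of 0.20 (SE 0.16), and the list median was 0.13. The summed level of the list was 9754 to 14247 CPM after EA and 8374 to 10688 CPM in HT. The list holds both miR-219a-2-3p and miR-219b, whose counts differed by at most 0.229% in any library. These names held most of the sum, and the list median also counts both. Among the red cell miRNAs, miR-144-3p was called lower, at 6.48, 5.63 and 2.54 CPM after EA and 3.51, 7.36 and 15.5 CPM in HT, a log2 fold change of -0.88 (SE 0.37). Without HT library 3 it was -0.19, and it was not called without that library, without EA library 2 or 3, or with DESeq2. The main red cell miRNA, miR-451-5p, was at 104 ± 16.2 CPM after EA and 96.5 ± 33.3 CPM in HT and was not called.

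miR-344g was the lower miRNA with the largest difference at a mean of at least 10 counts. It was at 0.750, 1.92 and 0.206 CPM after EA and at 2.20, 4.34 and 2.10 CPM in HT, a log2 fold change of -1.59 (SE 0.49) on a mean of 22.3 counts. Its groups did not overlap, and it was called without each library in turn, with log2 fold changes from -2.61 without EA library 2 to -1.09 without EA library 3. It is also 1 of the 35 miRNAs the study selected for the PVN, partly on PVN libraries of this series, none of which enters the CEA comparison. Of those 35, 5 were called in the CEA against 5.28% of all miRNAs, miR-3099 higher and miR-128-3p, miR-344g, miR-493-3p and miR-493-5p lower (4 higher and 3 lower with library totals), with a median of -0.00 over the 33 with a mean of at least 10 counts.

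Some lists held no called member. None of 25 miRNAs linked to stress or glucocorticoids was called by edgeR at an unadjusted p under 0.05 or by DESeq2, and their median log2 fold change was -0.02, but 4, all miR-34b and miR-34c arms, were called higher without the second HT library, where 2.52% of all miRNAs were, and 3 were called higher with library totals, with the replicate block or without EA library 1. The summed level of this list was 21044 to 21710 CPM after EA and 22289 to 22709 CPM in HT, so the groups did not overlap on that scale. Most of that sum was miR-30a-5p, at 16678 to 17327 CPM after EA and 18110 to 19241 CPM in HT. miR-124-3p, which lowers glucocorticoid receptor levels, had a log2 fold change of 0.06 (SE 0.18), and miR-30a-5p one of -0.15 (SE 0.15). None of 29 miRNAs linked to the mu opioid receptor was called by either tool, with a median of 0.01. let-7f-5p had a log2 fold change of -0.11 (SE 0.16) and let-7i-5p one of -0.04 (SE 0.15). None of the 7 endothelial and mural, 8 liver and gut, 12 striated muscle, 20 let-7, 11 miR-30, 10 miR-181, 25 miR-17-92, 12 miR-15/16, 11 miR-99/100/125, 4 miR-26, 8 miR-130 or 4 miR-135 members was called by either tool in the fit described, although with library totals edgeR called 2 miR-130 members and 1 of the miR-99/100/125 members higher. Of 11 miR-23/24/27 members edgeR called none, while DESeq2 called 1 lower, as did edgeR with DESeq2 size factors or a mean of at least 10 counts. Of the 28 lists, 3 had summed levels apart and higher after EA, the Dlk1-Dio3, miR-15/16 and miR-130 lists. The stress list was the 1 apart and lower. Levels of miR-126a-3p, the endothelial marker, were 23991 ± 2186 CPM after EA and 25840 ± 2608 CPM in HT (SD, n = 3 each). A p above the threshold does not show equal levels.

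The ciliated and choroid epithelium list gave no call among 10 members, yet its median log2 fold change was 0.54 over 7 with a mean of at least 10 counts. Its main member miR-34c-5p ranged from 227 to 943 CPM within HT and from 579 to 836 CPM within HT + EA, so the spread within HT covered the difference. Without the second HT library 5 members were called higher, against 2.52% of all miRNAs. They were miR-449a-5p and the same 4 miR-34b and miR-34c arms. Library totals, the replicate block and leaving out EA library 1 each gave 3 called higher. The summed level of the list was 1126 to 1418 CPM after EA and 647 to 1453 CPM in HT, and its part in the other differences was not tested.

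**Figure D4:**
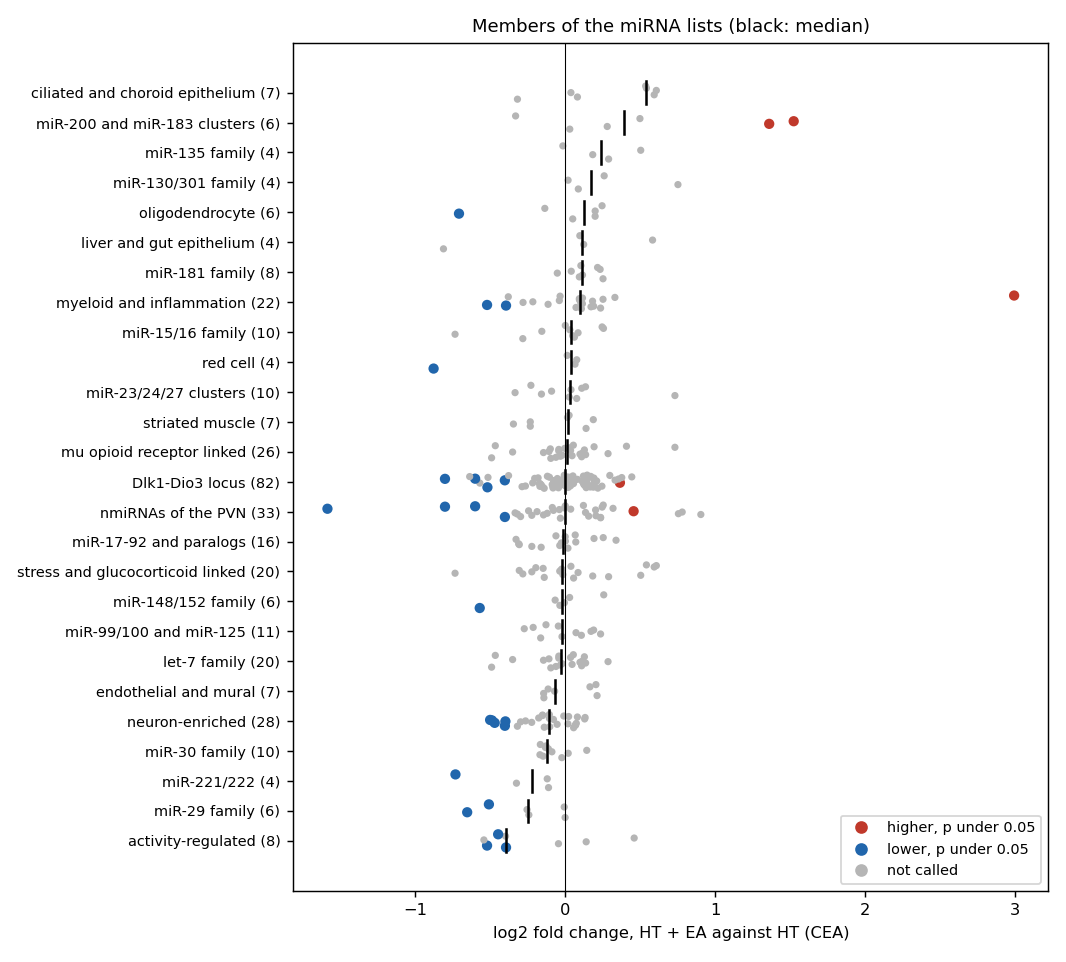
Log2 fold change of HT + EA against HT in the CEA for the members of each miRNA list with a mean of at least 10 counts (number in brackets, lists of at least 4), with called members in red or blue and the list median as a black line. The activity-regulated and miR-29 lists have the lowest medians, the Dlk1-Dio3 locus is centred on 0, and miR-223-3p stands alone at the right.

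Groups that did not overlap were found for 50 of the 531 miRNAs (9.42%), 34 higher and 16 lower, and 14 of the 50 were also called. If labels did not matter, a share of 0.1 of miRNAs would have groups apart with 3 libraries against 3. Other arms gave a further view of the calls. With both arms at a mean of at least 10 counts, 23 pairs of arms, matched by RefSeq hairpin or by name and each counted once, held a called miRNA. Both arms had the same sign in 18 of them (78.3%), against 111 of all 179 such pairs (62.0%). Both arms were called for 2 hairpins, miR-493 and miR-132. The exceptions in sign were miR-219a-5p, miR-136-5p, miR-144-3p, miR-379-3p and miR-32-5p.

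Below a mean of 10 counts, 16 further miRNAs were called. miR-509-3p had counts in all 3 EA libraries, at 0.205, 0.214 and 0.344 CPM, and none in HT. miR-186-3p had none in the EA libraries and 0.401, 0.202 and 0.0751 CPM in HT. For these the limit that a count of 0 allows in a library is 3 counts, or 0.205 to 0.303 CPM, so neither difference can be given a fold.

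The HT + EA and HT libraries of the PVN hold no library of the CEA comparison, so the same difference could be read there. In the PVN 112 of 985 miRNAs were called (11.4%), 10 of them after adjustment. Of 509 miRNAs with a mean of at least 10 counts in both comparisons, 37 were called in the CEA and 95 in the PVN (18.7% of 509). They shared 25, which is 67.6% of the CEA calls and 26.3% of the PVN calls, and all 25 had the same sign. Of the 37 CEA calls, 36 had the same sign in the PVN, against 350 of all 509 (68.8%). The exception was miR-3552, with a log2 fold change of -0.01 in the PVN. The shared share of CEA calls ranged from 44.7% to 77.3% over the alternatives, lowest without HT library 3. In the PVN as in the CEA the EA libraries tended to be deeper, with 12134529 to 14828269 counts against 8789556 to 11050725 in HT, and the part of depth was not tested. Same-numbered EA libraries of both nuclei deviated together from their group means (r = 0.15, 0.27 and 0.26 across the 509 miRNAs), whereas same-numbered HT libraries did so weakly or not at all (r = -0.05, 0.05 and -0.00).

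miR-223-3p had a log2 fold change of 3.0 (SE 0.27) in the PVN, and miR-10b-5p one of 2.03 (SE 0.17). miR-200b-3p was higher there by 1.56 (SE 0.37) and miR-200a-3p by 1.66 (SE 0.41). Of the 8 members of the miR-200 and miR-183 list with a mean of at least 10 counts in the PVN, 7 were called higher, against 9.92% of the 524 miRNAs at that mean in the PVN. Among the lower miRNAs, the PVN log2 fold change was -0.84 (SE 0.14) for miR-29b-3p, -0.94 (SE 0.15) for miR-219a-5p, -0.73 (SE 0.17) for miR-493-5p and -0.64 (SE 0.13) for miR-136-5p. Of the miRNAs whose CEA call was lost without the first HT library, miR-132-5p at -0.16 (SE 0.10) and miR-148a-3p at -0.10 (SE 0.10) were not called in the PVN. By contrast, miR-139-5p at -0.35 (SE 0.11), miR-425-5p at -0.38 (SE 0.12), miR-29c-5p at -0.60 (SE 0.18) and miR-128-3p at -0.39 (SE 0.10) were called lower there. miR-218a-5p was at -0.17 (SE 0.10) and not called.

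The difference between the nuclei was tested in its own fit of 12 libraries. By edgeR, 20 of 1051 miRNAs were called (1.9%) and none after adjustment, while DESeq2 called 6 and none after adjustment. For miR-223-3p the CEA difference minus the PVN difference was 0.06 log2 (95% interval -1.36 to 1.49), and for miR-10b-5p it was -0.57 (95% interval -1.66 to 0.51). These intervals are too wide to show that the nuclei responded alike. The largest among the called CEA miRNAs was miR-3552, at 0.98 (95% interval 0.10 to 1.87), and it too failed the adjustment.

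**Figure D5:**
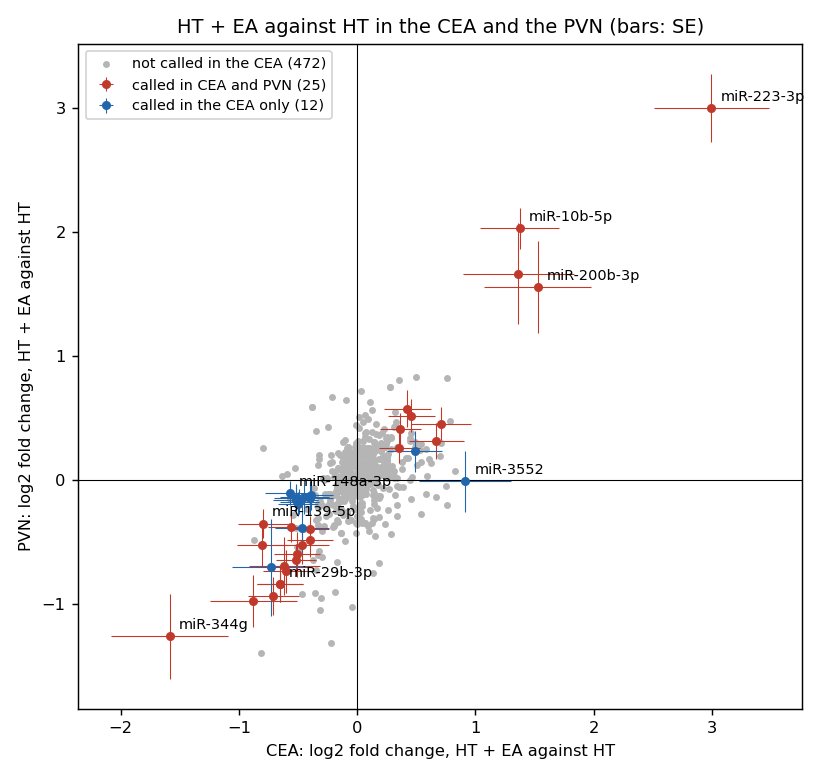
Log2 fold change of HT + EA against HT in the CEA (x axis) and the PVN (y axis) for 509 miRNAs, with SE bars on the 37 called in the CEA. The 25 called in both nuclei (red) all lie in the quadrants of equal sign, and miR-3552 lies at about 0 in the PVN.

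Needling without current shares the HT libraries with the comparison above, so its values are set beside them without a measure of likeness. HT + SEA against HT gave 47 of 999 calls (4.7%), 4 of them after adjustment. Tested directly, HT + EA against HT + SEA gave 23 of 1026 calls (2.24%) by edgeR and none after adjustment, and DESeq2 gave 8 and none. miR-223-3p was at 18.7, 1.39 and 1.75 CPM in the SEA libraries, and EA minus SEA was 0.09 log2 (95% interval -0.87 to 1.05). miR-10b-5p was at 156, 11.5 and 69.3 CPM in SEA, and EA minus SEA was 0.55 (95% interval -0.18 to 1.27). miR-29b-3p was at 660, 755 and 635 CPM in SEA, which overlaps the EA libraries and lies below all HT libraries. miR-136-5p was at 988, 965 and 890 CPM in SEA, likewise below HT.

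For 3 of the named miRNAs EA and SEA differed at the unadjusted threshold. miR-493-5p was at 139, 128 and 125 CPM in SEA, above all EA libraries, with a log2 difference of -0.49 (95% interval -0.83 to -0.15). miR-219a-5p was at 112, 78.2 and 212 CPM in SEA, overlapping the EA libraries, with a log2 difference of -0.51 (95% interval -0.92 to -0.10). miR-144-3p was at 8.85, 6.10 and 16.8 CPM in SEA, with a log2 difference of -1.12 (95% interval -1.75 to -0.50).

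The NC libraries show where the unoperated level lay, and they too are compared through the same HT libraries. HT against NC gave 38 of 996 calls (3.82%), 2 of them after adjustment. miR-223-3p in NC was at 1.28, 10.7 and 10.8 CPM, and miR-10b-5p at 27.1, 202 and 177 CPM, in each case close to the range of the EA libraries. miR-200b-3p in NC was at 1.17, 5.25 and 1.96 CPM. miR-493-5p in NC was at 132, 162 and 158 CPM and miR-29b-3p at 924, 732 and 1001 CPM, near the HT levels. All EA libraries lay below all NC libraries for miR-493-5p, while for miR-29b-3p the groups overlapped. miR-139-5p and miR-148a-3p in NC, at 10724, 8869 and 10558 CPM and at 102644, 70374 and 76262 CPM, lay below the first HT library.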

How the data were processed

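Small RNA of the CEA and PVN was sequenced from NEBNext small RNA libraries. The authors deposited raw counts per miRNA for all 24 libraries, and those were used here. A further 24 columns of normalised values were not used. Per the labels, HISAT2, featureCounts and the human build GRCh38 (hg38) are listed, while the study names the rat genome mRatBN7.2. How miRNA reads were assigned, and on which strand, is not given in the sources used here. The table held 1098 names, 703 known and 395 predicted, of which 94 had 0 counts in the 6 libraries.

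Counts were scaled by TMM and tested with edgeR's quasi-likelihood fit on the 6 libraries, keeping miRNAs with at least 1 count and calling at an unadjusted p under 0.05 as the study did, with Benjamini-Hochberg adjustment beside it. DESeq2 was an alternative. The spread was estimated with 34.5 prior and 4 residual degrees of freedom. Levels are CPM, counts scaled to library totals and the TMM factors of all 24 libraries, as mean ± SD. List medians and named miRNAs require a mean of at least 10 counts. Named miRNAs were the adjusted calls, the 12 of smallest p in each direction, called list members, the 2 most abundant members of each list, the 10 most abundant miRNAs and up to 5 low calls. The members of the comparison, the lists and the tests were chosen with earlier results of these data known. The 429 miRNAs with a mean of at least 50 counts showed that same-numbered HT and HT + EA libraries did not deviate together (r = 0.12, -0.14 and 0.07), so the numbers were not used as pairs. The script was tested on simulated data. Intervals and limits of 0 cover counting error or the spread of libraries only.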

Additional observations from a re-analysis of the deposited data

How the results depend on the processing

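The count of 53 calls was 26 with DESeq2, 22 with filterByExpr, 22 at a mean of at least 10 counts and 30 among known miRNAs only. Leaving out 1 library gave 25 to 70, lowest without EA library 2 (25, of which 15 shared with the full set) and highest without HT library 2. Adjusted calls were 2 with DESeq2 size factors, 3 with library totals, 2 with identical counts taken once, and 0 with filterByExpr, a mean of at least 10 counts, known miRNAs only, a robust spread or all groups in the fit, and 0 to 21 with 1 library left out (14 without HT library 1, 21 without HT library 2, 10 without HT library 3). Prior degrees of freedom fell to 4.99 with filterByExpr and to 4.17 without EA library 2, against 34.5. Library totals moved the median of all miRNAs by 0.13 log2 and turned the split from 18 higher and 35 lower into 41 higher and 21 lower. EA against SEA gave 8 with DESeq2, 9 with filterByExpr, 10 at a mean of at least 10 counts, 13 among known miRNAs and 15 with all groups, and 15 to 37 with 1 library left out, with 0 to 4 adjusted. The difference between nuclei gave 6, 5, 4 and 11 under the first 4 of these, and 14 to 50 with 1 library left out, with 0 to 3 adjusted. With the replicate block, adjusted calls were 7 for EA against HT (36 unadjusted) and 5 for EA against SEA (29 unadjusted). For the difference between nuclei the block gave 18 unadjusted calls, 9 of them shared with the fit described, and 0 adjusted. Same-numbered libraries of the CEA did not deviate together in every pair, neither for EA and HT nor for EA and SEA (r = -0.18, 0.13 and 0.43), and not every EA library correlated best with its own number. The cause of these shifts was not tested.

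Of 34 named calls with a mean of at least 10 counts, 9 held under all 11 other settings and without each of the 6 libraries: miR-223-3p, both miR-493 arms, miR-29b-3p with miR-3587, miR-219a-5p, miR-344g and miR-218a-5p with miR-218b. None of the 39 named calls changed sign, whereas 33 of 47 named miRNAs that were not called did so under at least 1 alternative (14 with library totals), none past the threshold. With library totals the medians of 11 of 28 lists changed sign, as all miRNAs shifted, and none did relative to the median of all miRNAs.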
